A study of Mus musculus with 6 samples.

Results

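The genes described here are 10 cytokine genes of T cells, Ifng, Tnf, Lta, Ltb, Il2, Il4, Il10, Il16, Il21 and Csf2, taken by symbol from an RNA-seq table of 34245 genes. They were measured in 3 peripheral T-cell lymphomas (PTCL) of Dnmt3b+/- mice. These mice carry a conventional knockout allele of the DNA methyltransferase Dnmt3b made from Dnmt3b 2loxP mice. The labels give an FVB background, which the methods of the study name FVB/N. The study asked how loss of a Dnmt3b allele acts in lymphoma, and the tumors came from lymph nodes of mice that had become terminally sick. The labels describe the RNA samples as independent, so that the replicates are separate tumors, named tumor 1, 2 and 3 here, and they give no age. The allele is missing from every cell of the animal, so tumor cells and the host cells of the lymph node carry the same genotype. Levels are FPKM, that is, fragment numbers divided by exon length and by library size, and as the 3 tumors form 1 group, the values are described without a test.

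Cytokines are secreted or membrane-bound proteins through which T cells act on their neighbours. Interferon-gamma and TNF arm macrophages and raise antigen presentation, IL-2, IL-4 and IL-21 drive growth and differentiation of lymphocytes through receptors that share the common gamma chain, and IL-10 dampens inflammation. In resting T cells most of these genes are silent or low, and antigen receptor signals switch them on through NFAT, AP-1 and NF-kappaB, whereas Ltb and Il16 are transcribed in lymphocytes without such signals.

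The libraries differed in depth. Reads assigned to genes, recovered from the FPKM and the exon lengths, came to 20271114 in tumor 1, 12486708 in tumor 2 and 13697117 in tumor 3. For a transcript of the length of Il4, a count of 0 allows up to the FPKM of 3 reads, which equals 0.0796, 0.129 and 0.118 FPKM in tumors 1, 2 and 3. All 10 members gave whole reads in every tumor within a tolerance of 0.02 read. Intervals and limits based on these reads cover counting error only.

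T-cell transcripts were abundant in each tumor. Cd3e, a signalling chain of the T-cell receptor complex, measured 56.4, 78.1 and 65.3 FPKM in tumors 1, 2 and 3. The other genes of the T-cell list, Cd3d, Cd3g, Cd247, Cd2, Cd5, Lck, Trbc1 and Trbc2, were also above 0.2 FPKM in every tumor, and the list of 9 genes summed to 894, 1091 and 1064 FPKM. Cd8a, the co-receptor of cytotoxic T cells, stood at 259, 122 and 218 FPKM and Cd8b1 at 435, 166 and 443 FPKM. Cd4 was lower, at 28.4, 4.28 and 8.22 FPKM, and Zbtb7b, the factor that directs the CD4 lineage, was at 3.07, 2.65 and 3.18 FPKM. CD8 transcripts thus exceeded Cd4 in all 3 tumors, and tumor 1 had the highest Cd4.

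Of the 10 cytokine genes, 7 were above 0.2 FPKM in every tumor, a threshold that 36.7% of all genes in the table passed. These were Ltb, Il16, Ifng, Lta, Tnf, Csf2 and Il10, and Il10 lay just inside it, with 0.201 FPKM from 5 reads in tumor 2. Il4, Il21 and Il2 were not above it in every tumor. Ltb exceeded Il16 and Il16 exceeded Ifng without overlap between tumors. Below these, each neighbour in the order of mean FPKM (Ifng, Lta, Tnf, Csf2, Il4, Il10, Il21, Il2) overlapped the next over the tumors. The order itself depends on tumor 1, since without it the mean of Ifng went from 3.57 to 1.11 FPKM, that of Il4 from 1.21 to 0.0586 FPKM, that of Il10 from 1.03 to 0.321 FPKM, that of Il21 from 0.217 to 0.142 FPKM and that of Il2 from 0.113 to 0.0418 FPKM. Without tumor 2, the mean of Csf2 went from 2.78 to 1.5 FPKM.

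Of the 9 members with a mean of at least 0.2 FPKM, 5 had their highest value in tumor 1, whereas 3 peaked in tumor 2 and 1, Il16, in tumor 3. The 14721 genes with such a mean peaked in tumor 1 for 49.8%, in tumor 2 for 35.3% and in tumor 3 for 15.0%, so these counts are near the background. Counts of highest genes in the lists described further on are read against the same shares.

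**Figure D1:**
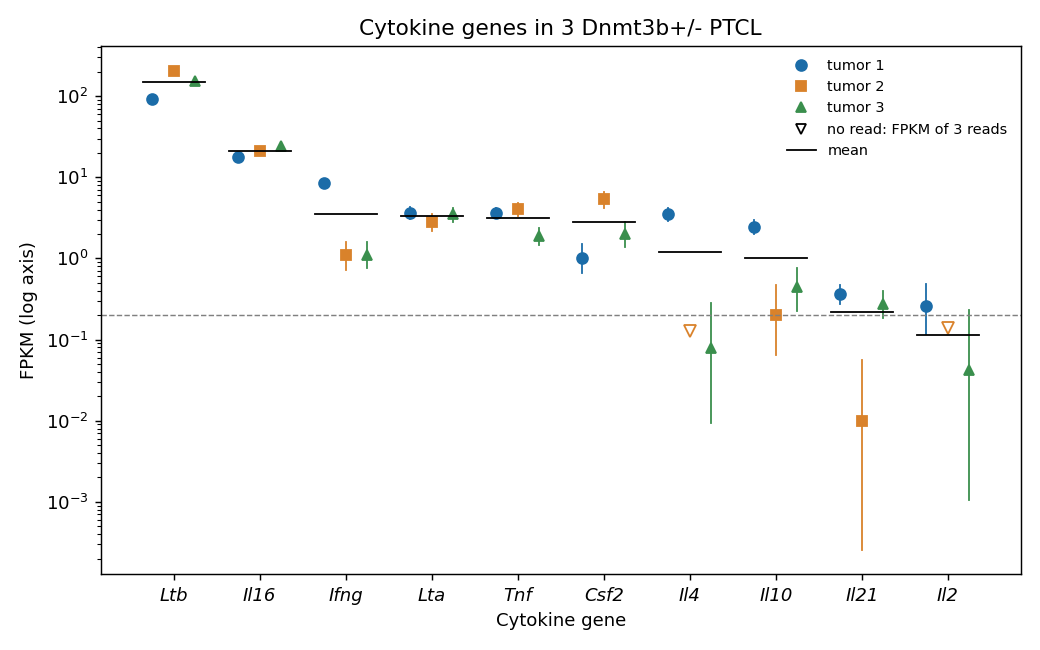
FPKM (log axis) of the 10 cytokine genes in each of the 3 tumors, in order of mean FPKM, with exact 95% Poisson intervals on the reads as vertical lines, means as horizontal bars and 0.2 FPKM as a dashed line; open triangles stand at the FPKM of 3 reads for a gene without a read. Ltb lies between 93.4 and 205 FPKM, and Ifng, Il4 and Il10 are highest in tumor 1.

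Promoter sequence is shown for Ltb, the highest member, and for Ifng and Il4, which were high in tumor 1. The sequences are from RefSeq (GRCm38.p6), which had an entry for 9 of the 10 members, and run 5′ to 3′ on the strand of the gene, up to the start of the gene in the table. They lie at chr17:35194257-35194438 on the plus strand for Ltb, chr10:118440796-118441045 on the plus strand for Ifng and chr11:53618670-53618915 on the minus strand for Il4. Capitals mark matches, on either strand, to GGAAA (the NFAT core), TGANTCA (AP-1), the kappaB consensus, TATAAA, TTCNNNGAA (STAT) and AGGTGT (T-box core).
Ltb: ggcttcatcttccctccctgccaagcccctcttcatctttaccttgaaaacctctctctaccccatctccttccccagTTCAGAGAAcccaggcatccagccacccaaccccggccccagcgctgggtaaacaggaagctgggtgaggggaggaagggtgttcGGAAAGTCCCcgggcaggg
Ifng: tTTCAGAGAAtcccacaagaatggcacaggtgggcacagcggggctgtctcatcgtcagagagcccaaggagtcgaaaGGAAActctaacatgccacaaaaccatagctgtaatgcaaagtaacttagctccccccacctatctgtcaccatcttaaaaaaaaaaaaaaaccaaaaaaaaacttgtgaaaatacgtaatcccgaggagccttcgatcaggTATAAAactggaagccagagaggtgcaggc
Il4: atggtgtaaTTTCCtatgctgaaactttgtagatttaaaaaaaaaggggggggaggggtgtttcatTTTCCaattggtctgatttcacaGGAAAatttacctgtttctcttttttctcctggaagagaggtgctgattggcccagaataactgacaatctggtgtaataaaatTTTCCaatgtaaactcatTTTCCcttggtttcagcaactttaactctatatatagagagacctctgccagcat
The Ltb stretch held 1 kappaB match, which overlaps its GGAAA match, and 1 STAT match. The Ifng stretch held 1 GGAAA, 1 STAT match and 1 TATAAA, and the Il4 stretch held 5 GGAAA matches and no CG dinucleotide. Over the 250 bases before the RefSeq start, GGAAA was found in 9 of 9 members and in 55.6% of 32851 promoters, TATAAA in 4 members and 12.4% of promoters, and the kappaB consensus in 1 member and 3.90% of promoters. STAT matches were found in 3 members and 7.02% of promoters, T-box matches in 3 members and 11.8%, and TGANTCA in 1 member and 6.75%. For Il16, which has 3 RefSeq starts, the one nearest to the start of the gene in the table was used, and it lies 10187 bases inside the gene. The members had a median of 5 CG dinucleotides against 6 for all promoters. A match is a description of letters, and binding was not measured.

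Ltb encodes lymphotoxin-beta, the membrane anchor of a TNF family ligand that maintains lymph node architecture. It measured 93.4, 205 and 155 FPKM in tumors 1, 2 and 3 (151 ± 55.9, SD, n = 3) and lay above 99.2% of all genes in tumor 1. Tumor 2 was highest, 2.19-fold above tumor 1 (95% counting interval 2.11 to 2.28). Lta, whose product joins lymphotoxin-beta in that ligand, was far lower at 3.65, 2.78 and 3.48 FPKM (3.30 ± 0.459, SD, n = 3). Lta was the most even of the members, and its counting intervals overlapped between all 3 tumors.

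Tnf encodes the inflammatory cytokine TNF and stood at 3.61, 4.05 and 1.88 FPKM (3.18 ± 1.15, SD, n = 3). Tumors 1 and 2 were alike within counting error and tumor 3 was lowest. The 3 genes lie side by side on chromosome 17 (GRCm38), Ltb (ENSMUSG00000024399) at chr17:35194439-35196320, Tnf (ENSMUSG00000024401) at chr17:35199381-35202007 and Lta (ENSMUSG00000024402) at chr17:35203165-35205351. Only 3060 bases part Ltb from Tnf and 1157 bases part Tnf from Lta, yet Ltb exceeded the others in every tumor.

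Il16 (ENSMUSG00000001741, chr7:83642825-83745726), the precursor of a chemoattractant for CD4+ cells, measured 17.8, 21.2 and 24.3 FPKM (21.1 ± 3.25, SD, n = 3). It was similar in the 3 tumors and ranked next after Ltb. Stard5 overlaps it on the opposite strand with 14.7, 15.3 and 18.0 FPKM, as does 2310044K18Rik with 0.527, 1.45 and 1.01 FPKM, and since no use of strand in the counting is stated, reads of such pairs cannot be told apart. Together, Ltb and Il16 made up 82.7% of the summed FPKM of the 10 genes in tumor 1, 94.3% in tumor 2 and 95.1% in tumor 3. Ltb alone held 79.0 ± 8.48% (SD, n = 3).

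The other 8 genes summed to 23.3 FPKM in tumor 1, 13.6 FPKM in tumor 2 and 9.30 FPKM in tumor 3. The leading gene of these 8 was a different one in each tumor. Ifng held 36.4% of their sum in tumor 1, Csf2 39.4% in tumor 2 and Lta 37.4% in tumor 3.

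Ifng (ENSMUSG00000055170, chr10:118441046-118445892) encodes interferon-gamma, the main macrophage-activating cytokine of cytotoxic and type 1 helper T cells. It measured 8.49 FPKM from 338 reads in tumor 1, 1.10 FPKM from 27 reads in tumor 2 and 1.12 FPKM from 30 reads in tumor 3. Tumor 1 was high and tumors 2 and 3 were alike within counting error. The level in tumor 1 was 7.73-fold that in tumor 2 (95% counting interval 5.22 to 11.9) and 7.62-fold that in tumor 3 (5.24 to 11.5). The gene AC153498.1 lies inside Ifng on the same strand and measured 2.03, 0.290 and 0.690 FPKM, so some reads could belong to either.

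Il4 (ENSMUSG00000000869, chr11:53602982-53618669) encodes the cytokine that directs type 2 helper responses and class switching of B cells. It measured 3.50 FPKM from 132 reads in tumor 1, had no read in tumor 2 and had 2 reads, 0.0785 FPKM, in tumor 3. Il4 was thus well above the limit of detection in tumor 1 and at or under it in the others. Set against 3 reads in tumor 2, tumor 1 was at least 27.2-fold higher, a bound that takes its own reads as exact, and with their counting error the 95% interval of the ratio starts at 21.8. Tumor 1 was 44.6-fold higher than tumor 3 (95% counting interval 12.1 to 372).

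Neighbours of Il4 on chromosome 11 were examined by position. Il13, a related type 2 cytokine 12654 bases away, had 18 reads in tumor 1 and none in tumors 2 and 3. Il5, the eosinophil growth factor, had 5, 0 and 1 reads. Rad50, a DNA repair gene that lies between Il13 and Il5, was expressed in all tumors at 9.46, 5.33 and 5.72 FPKM.

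Il10 (ENSMUSG00000016529, chr1:131019845-131024974) encodes an anti-inflammatory cytokine made by T cells and macrophages, and measured 2.43, 0.201 and 0.441 FPKM from 98, 5 and 12 reads. Tumor 1 was again high, 12.1-fold above tumor 2 (95% counting interval 5.01 to 38.1) and 5.52-fold above tumor 3 (3.02 to 11.0). A tumor with more than 66.7% of the total FPKM of a gene, added up across tumors 1 to 3, was named dominant. Of the 9 members with a mean of at least 0.2 FPKM, 3 had a dominant tumor, against 9.82% of the 14721 genes with such a mean. All 3 were dominant in tumor 1, which was dominant for 4.77% of those genes. Il4 passed the filter on the mean only through tumor 1, with a mean of 0.0586 FPKM without it. Its place in the count thus rests on the value that is called. All genes were filtered in the same way, and some genes of the lists described further on, such as Fcer1a, also passed through tumor 1 alone. Tumor 1 held 79.3% of the summed FPKM of Ifng, 96.8% of that of Il4 and 79.1% of that of Il10. Without tumor 3, a share over 66.7% was reached by 5 of 8 members, with Ltb and Csf2 added, which were higher in tumor 2 than in tumor 1. Between only 2 tumors such a share is reached at a smaller difference, and 32.3% of all genes with such a mean reached it there.

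**Figure D2:**
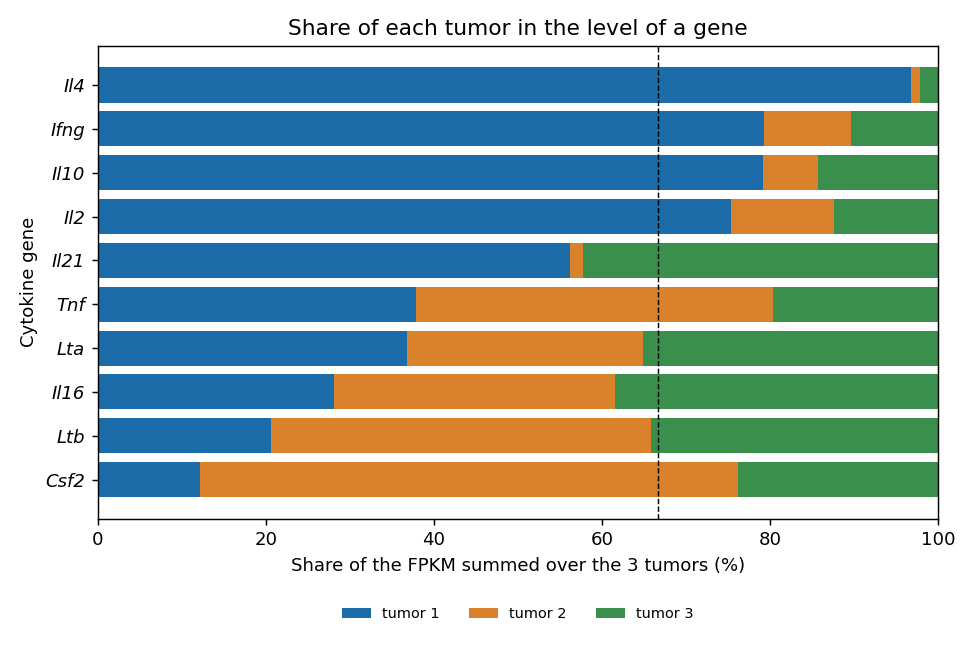
Share of each tumor (%) in the FPKM of each cytokine gene summed over the 3 tumors, with a dashed line at 66.7%. Tumor 1 holds 96.8% for Il4, 79.3% for Ifng and 79.1% for Il10, and tumor 2 holds 64.0% for Csf2; a gene without a read in a tumor enters with the FPKM of 0.9 read that the table gives it.

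Csf2 (ENSMUSG00000018916, chr11:54247271-54249667) encodes GM-CSF, a growth and activation factor of myeloid cells, and had another order. It measured 1.02, 5.34 and 1.99 FPKM from 25, 81 and 33 reads. Tumor 2 was highest, 5.25-fold above tumor 1 (95% counting interval 3.32 to 8.58), and its share of 64.0% fell short of dominance. The opposite-strand gene Gm12223 overlaps Csf2 and measured 0.493, 3.10 and 1.00 FPKM. Il3, a related cytokine gene 15635 bases away, had no read in any tumor.

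By mean FPKM over the 3 tumors, Il21 and Il2, growth factors of lymphocytes, were the lowest members. Without tumor 1, the mean of Il4 (0.0586 FPKM) lay below that of Il21 (0.142 FPKM). Il21 (ENSMUSG00000027718, chr3:37222759-37232636) measured 0.365, 0.0100 and 0.275 FPKM from 59, 1 and 30 reads. It was detected in tumors 1 and 3, which did not differ beyond counting error, and was 36.4-fold higher in tumor 1 than in tumor 2 (95% counting interval 6.29 to 1463). The opposite-strand gene Gm12534 overlaps it and measured 0.416, 0.101 and 0.308 FPKM. Il2 (ENSMUSG00000027720, chr3:37120523-37125959) had 9 reads in tumor 1, none in tumor 2 and 1 in tumor 3, and the level in tumor 1 was 0.256 FPKM. Set against 3 reads in tumor 2, Il2 was at least 1.85-fold higher in tumor 1 by the same kind of bound. The 95% counting interval of that ratio starts at 1.22. Against tumor 3 the ratio was 6.08 (95% counting interval 0.843 to 267), so tumors 1 and 3 did not differ beyond counting error. The mean of Il2, 0.113 FPKM, kept it out of the count of dominant tumors. Adad1, which overlaps the end of Il2, had no read in any tumor.

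Over the 9 members with a mean of at least 0.2 FPKM, the median range between tumors was 2.08 on the log2(FPKM + 0.1) scale, against 0.82 over all 14721 genes with such a mean. Il21 and Il4 passed this filter only with tumor 1 included, with means of 0.142 and 0.0586 FPKM without it. Their place here thus rests on the tumor in which they were highest, and all genes were filtered in the same way. The median range depends on the pseudocount, and with 0.1 FPKM added it was that of Il21, which had 1 read in tumor 2. With 1 FPKM added it was 1.13 for the members, against 0.57 for all genes. Relative to the geometric mean of Cd3d, Cd3e and Cd3g, Ifng came to 10.8%, 1.06% and 1.08% in tumors 1, 2 and 3, and Il4 to 4.44% in tumor 1 and 0.0761% in tumor 3, while its count of 0 in tumor 2 allows up to 0.124%. The geometric mean itself was lowest in tumor 1, at 78.9, 104 and 103 FPKM in tumors 1, 2 and 3. Division by it could only raise tumor 1 against the others, so it could not change which tumor was highest for these genes. The part of T-cell content in these levels was not tested.

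Receptor genes were expressed throughout, with 19 of 19 above 0.2 FPKM in every tumor, against 36.7% of all genes. Il2rb and Il2rg, signalling chains for IL-2 that also serve related cytokines, were the highest, with Il2rb at 162, 526 and 435 FPKM and Il2rg at 225, 296 and 344 FPKM. Il2ra, which gives the IL-2 receptor its high affinity, measured 43.2, 9.98 and 1.96 FPKM. Il2rb was lowest in tumor 1, where Il2ra was highest. Among other partners of the gamma chain, Il21r stood at 54.2, 59.7 and 74.7 FPKM and Il4ra at 35.0, 28.1 and 37.4 FPKM, each even between tumors. Il13ra1, which pairs with Il4ra in non-lymphoid cells, was lowest of the list, at 1.44, 0.256 and 0.311 FPKM.

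Ifngr1, the ligand-binding chain for interferon-gamma, measured 64.1, 182 and 72.3 FPKM. Ifngr2, the chain that completes the receptor, measured 5.54, 1.05 and 1.09 FPKM and was highest in tumor 1, like Ifng. Il10ra stood at 20.2, 115 and 23.5 FPKM and Il10rb at 24.5, 27.5 and 29.7 FPKM. Il10ra was highest in tumor 2, where Il10 was lowest. The TNF receptor genes Tnfrsf1b (17.0, 42.7 and 21.3 FPKM) and Tnfrsf1a (9.57, 16.0 and 7.04 FPKM) were also highest in tumor 2. Tnfrsf14, a further receptor of lymphotoxin-alpha, measured 18.5, 25.0 and 16.6 FPKM. Ltbr, the receptor of the lymphotoxin heterotrimer and mostly a gene of stromal and myeloid cells, was low at 2.21, 1.79 and 0.511 FPKM. Ltb thus exceeded its receptor in every tumor.

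The GM-CSF receptor genes Csf2ra (6.23, 11.5 and 2.73 FPKM), Csf2rb (8.83, 3.78 and 1.61 FPKM) and Csf2rb2 (4.54, 1.62 and 0.449 FPKM) were lowest in tumor 3. Csf2rb and Csf2rb2 are near-identical copies, so their separate levels are uncertain, and summed they measured 13.4, 5.41 and 2.06 FPKM. Cd9, proposed as a receptor of IL-16 beside Cd4, measured 4.0, 3.33 and 2.59 FPKM. Of the 19 receptor genes, 6 had a dominant tumor, against 9.82% of all genes with a mean of at least 0.2 FPKM. It was tumor 2 for Il10ra and tumor 1, dominant for 4.77% of those genes, for Il2ra, Cd4, Ifngr2, Il13ra1 and Csf2rb2. For Csf2rb and Csf2rb2 summed, tumor 1 held 64.2%, which is not dominant.

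**Figure D3:**
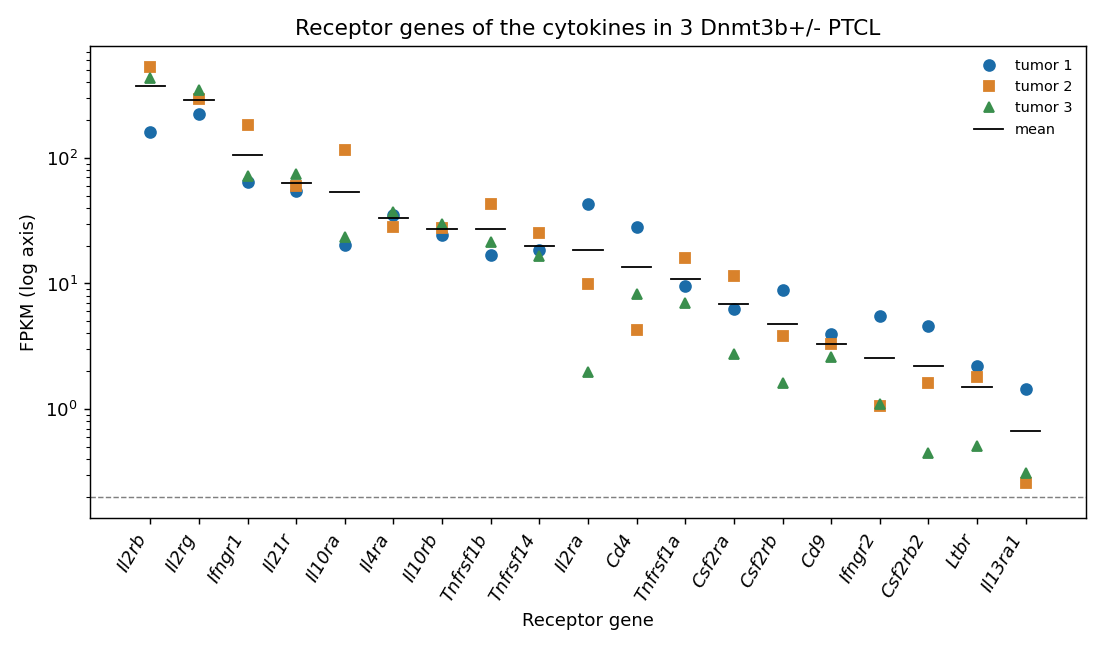
FPKM (log axis) of the 19 receptor genes in each of the 3 tumors, in order of mean FPKM, with means as horizontal bars and 0.2 FPKM as a dashed line. All 19 lie above the line in every tumor, and Il2ra spans 1.96 to 43.2 FPKM.

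Among 41 other interleukins and T-cell ligands, 16 were above 0.2 FPKM in every tumor, near the 36.7% of all genes, and 5 had no read in any. The chemokine genes Ccl5 (238, 194 and 729 FPKM), Xcl1 (4.60, 86.9 and 35.6 FPKM) and Ccl4 (27.6, 24.0 and 32.1 FPKM) were among the highest 6 by mean FPKM. The others were Mif, the macrophage migration inhibitory factor and an inflammatory cytokine (102, 244 and 143 FPKM), Tnfsf8, the CD30 ligand (44.4, 11.0 and 45.5 FPKM), and Fasl, the death ligand of cytotoxic cells (8.08, 53.4 and 15.1 FPKM). Of the 24 genes with a mean of at least 0.2 FPKM, 8 had a dominant tumor, against 9.82% of all genes. It was tumor 1 for 6 of them, against 4.77%, and tumor 2 for Xcl1 and Fasl. The chemokine gene Ccl3 (12.3, 2.00 and 1.57 FPKM) and the inflammatory cytokine gene Il18 (5.81, 0.614 and 0.374 FPKM) were among those dominant in tumor 1. Il27 (0.829, 0.258 and 0.141 FPKM) was among them too, and its mean reached 0.2 FPKM only through tumor 1.

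Of 30 transcription factors that act on cytokine genes, 27 were above 0.2 FPKM in every tumor, against 36.7% of all genes. Of the 29 with a mean of at least 0.2 FPKM, 1 had a dominant tumor, against 9.82%. Ikzf1, a lymphoid regulator, measured 63.5, 52.1 and 52.4 FPKM and the AP-1 gene Junb 35.4, 37.1 and 31.0 FPKM. Eomes, a T-box factor of cytotoxic cells that acts on Ifng, stood at 20.0, 39.5 and 45.0 FPKM and was lowest in tumor 1, where Ifng was highest. Fos, another AP-1 gene, was dominant in tumor 3, with 0.747, 0.762 and 5.02 FPKM.

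Interferon-gamma response genes were expressed in all tumors, with 22 of the 24 matched genes above 0.2 FPKM in every tumor, against 36.7% of all genes (Cxcl11 was not matched). Of the 23 with a mean of at least 0.2 FPKM, 4 had a dominant tumor, against 9.82%. Among these 4 is Nos2 (1.04, 0.108 and 0.0109 FPKM), dominant in tumor 1, whose mean reached 0.2 FPKM only through that tumor. B2m, the light chain of MHC class I, measured 2327, 1573 and 1781 FPKM, Cd74, the MHC class II chaperone, 345, 167 and 207 FPKM, and the immunoproteasome gene Psmb8 124, 166 and 145 FPKM. The chemokine gene Cxcl9 (37.8, 1.77 and 0.447 FPKM) and the GTPase gene Iigp1 (50.9, 5.25 and 6.34 FPKM) were dominant in tumor 1, as was Ifng, whereas the chemokine gene Cxcl10 (8.14, 22.5 and 0.663 FPKM) was dominant in tumor 2. Of the 23 genes, 10 were highest in tumor 1 and 13 in tumor 2, against 49.8% and 35.3% of all genes.

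TNF and NF-kappaB response genes were above 0.2 FPKM in every tumor for 17 of 20, against 36.7% of all genes. Of the 18 with a mean of at least 0.2 FPKM, 2 had a dominant tumor, near the 9.82% of all genes. Nfkbia, the feedback inhibitor of NF-kappaB, measured 34.2, 35.2 and 26.2 FPKM, Icam1 17.8, 25.2 and 18.5 FPKM and Tnip1 22.1, 16.0 and 13.9 FPKM. These were even between tumors, whereas the adhesion gene Vcam1 (8.09, 2.38 and 0.174 FPKM) was dominant in tumor 1 and the chemokine gene Ccl2 (2.26, 6.30 and 0.212 FPKM) in tumor 2.

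Of 15 STAT feedback and response genes, 14 were above 0.2 FPKM in every tumor, against 36.7% of all genes, and 3 were dominant in tumor 1, against 4.77%. Il2ra is among these 3 and was counted among the receptors too. Lif (1.32, 0.254 and 0.0775 FPKM) is another, and its mean reached 0.2 FPKM only through tumor 1. The granzyme gene Gzmb measured 463, 702 and 134 FPKM, and the kinase genes Pim2 and Pim1 measured 41.6, 81.6 and 91.0 FPKM and 93.1, 37.4 and 73.3 FPKM. Osm, a cytokine gene induced through STAT5, was dominant in tumor 1 with 12.5, 2.53 and 3.11 FPKM. All 10 genes for mRNA decay factors of cytokine transcripts were above 0.2 FPKM in every tumor, against 36.7% of all genes, and none had a dominant tumor, against 9.82%. Zfp36l2 measured 41.6, 84.4 and 46.8 FPKM, Zfp36l1 20.7, 22.2 and 19.0 FPKM and Hnrnpd 26.2, 16.0 and 17.0 FPKM.

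Markers of other cell types also differed between tumors, and in bulk RNA fewer cells of a type and less RNA per cell cannot be told apart. Macrophage and monocyte genes were highest in tumor 1 for 5 of 6, where 49.8% of all genes were highest, summing to 339, 114 and 34.2 FPKM. The most abundant by mean FPKM was Lyz2, at 215, 33.1 and 20.3 FPKM. Cd68 was the 1 gene not highest in tumor 1, and in tumor 2, where it was highest, it exceeded Lyz2 (19.6, 51.2 and 9.27 FPKM). Regulatory T-cell genes, a list of only 3, were highest in tumor 1 for 3 of 3, against the same 49.8%. They summed to 41.1, 1.57 and 8.06 FPKM. With 34.0, 0.339 and 4.46 FPKM, Ctla4 led in tumors 1 and 3, whereas Foxp3 led in tumor 2 with 1.07 FPKM. Mast cell and basophil genes summed to 9.34, 0.860 and 2.52 FPKM and, of the 3 genes with a mean of at least 0.2 FPKM, 2 were highest in tumor 1. Their most abundant gene by mean FPKM, Cpa3, measured 7.23, 0.278 and 1.46 FPKM and lay below Ms4a2 in tumor 2. Fcer1a had 43 reads in tumor 1 and none in tumors 2 and 3, whereas Ms4a2 was highest in tumor 3 (0.613, 0.487 and 0.976 FPKM). The sums of these lists were highest in tumor 1, as were Ifng, Il4 and Il10, and their part in those levels was not tested.

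Dendritic cell genes were highest in tumor 1 for 4 of 5, against 49.8% of all genes, summing to 9.87, 4.63 and 3.29 FPKM, with Itgax at 3.18, 1.47 and 0.762 FPKM. The exception was Zbtb46, highest in tumor 2 (0.528, 0.638 and 0.266 FPKM). Neutrophil genes summed to 37.8, 1.42 and 15.7 FPKM, with S100a9 at 22.6, 1.01 and 10.4 FPKM, while Elane had no read. Ly6g, also on that list, had 1 read in tumor 1 and none in tumors 2 and 3. Plasma cell genes summed to 826, 188 and 205 FPKM, and most of each sum was Jchain at 814, 185 and 179 FPKM. The other plasma cell genes, Mzb1 (11.0, 2.62 and 25.8 FPKM) and Sdc1 (0.957, 0.595 and 1.09 FPKM), were highest in tumor 3. B-cell genes were highest in tumor 3 for 5 of 5, where 15.0% of all genes were highest, summing to 56.2, 13.7 and 104 FPKM, with Cd79a at 23.1, 7.31 and 49.0 FPKM. The part of these cells in the cytokine levels was not tested.

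Natural killer genes summed to 0.746, 6.01 and 3.58 FPKM, and the excess in tumors 2 and 3 was that of Klrb1c at 0.308, 5.77 and 3.38 FPKM. Ncr1 was highest in tumor 1 (0.380, 0.205 and 0.125 FPKM), and Klri2 was low in all tumors (0.0582, 0.0404 and 0.0738 FPKM). The gamma-delta T-cell list, of which Trgc1 and Trgc2 were not matched, stayed low at 0.606, 0.20 and 0.22 FPKM, with Trdc at 0.312, 0.0409 and 0.187 FPKM. Lymph node stroma genes summed to 15.3, 22.2 and 0.398 FPKM, and 3 of 4 were highest in tumor 2, among them Col1a1 at 1.63, 15.5 and 0.315 FPKM. Ccl19, a chemokine gene of the T-cell zone, was dominant in tumor 1 with 12.4 FPKM, most of the sum there, against 3.95 FPKM in tumor 2 and no read in tumor 3. Endothelial genes summed to 13.0, 12.3 and 4.99 FPKM, led by Pecam1 at 12.2, 10.9 and 4.86 FPKM, and Cdh5 was highest in tumor 2 (0.805, 1.39 and 0.126 FPKM). Pancreatic acinar genes were highest in tumor 2 for 5 of 5, where 35.3% of all genes were highest, summing to 63.8, 335 and 0.407 FPKM, and Ctrb1 reached 33.9 FPKM in tumor 1 and 198 FPKM in tumor 2 without a read in tumor 3. Csf2 and Il10ra were also highest in tumor 2, and the part of the acinar and stromal signal in them was not tested.

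**Figure D4:**
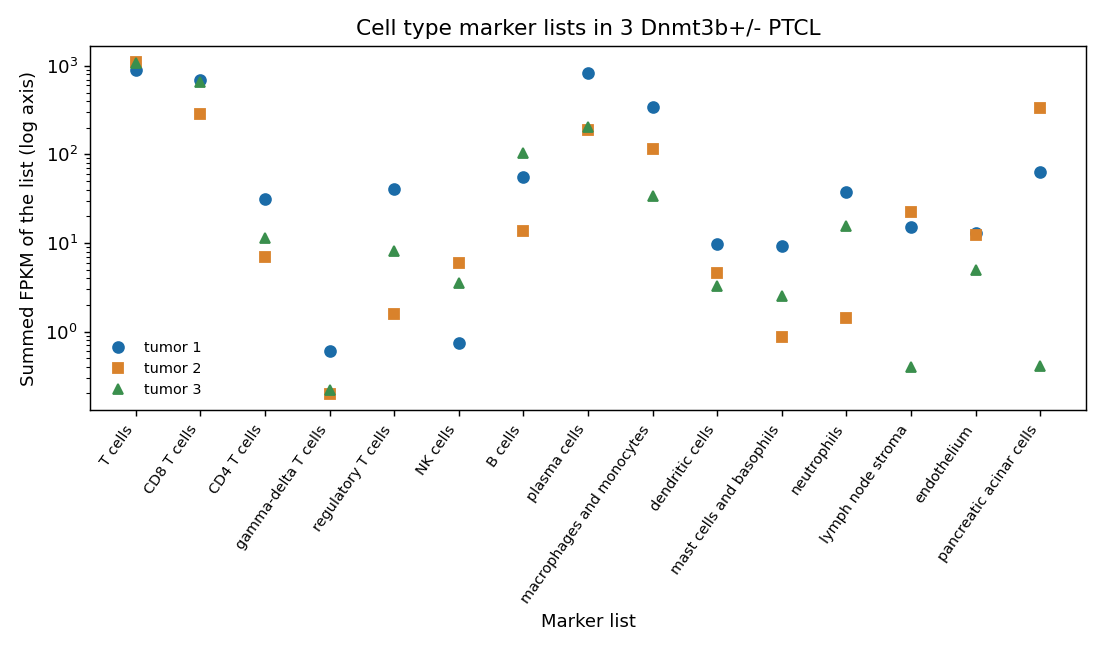
Summed FPKM (log axis) of each cell type marker list in each of the 3 tumors. T-cell genes sum to between 894 and 1091 FPKM, whereas macrophage genes range from 34.2 to 339 FPKM and acinar genes from 0.407 to 335 FPKM.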

How the data were processed

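For the 3 tumors the authors deposited linear FPKM, made after alignment of trimmed reads to mm10 with STAR and quantitation in SeqMonk. The labels name another sequencer for these libraries than the methods of the study. The 3 bisulfite libraries were not used here.

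Genes were matched by symbol, taking the row of highest mean FPKM where a symbol is repeated. A gene with no read carries a value worth 0.9 read, which enters means, shares and sums and gave each library's depth, and reads were recovered with merged exon lengths of GENCODE M21. Of the genes with such a length, 92.5% (tumor 1) and 92.6% (tumors 2 and 3) came out as whole reads (tolerance 0.02 read). Depth recovery was tested on simulated data, where an earlier form of the step took the value of 1 read for that of 0.9 read in a library, and the form used here recovered the reads. Intervals are exact Poisson intervals on reads or, for ratios, exact binomial intervals, at 95%.

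The members and lists were chosen with earlier results of these data known. Named are all members, receptors and T-cell, CD8 and CD4 markers, the 6 highest other ligands, the 3 highest genes of each other pathway list with at most 2 more that have a dominant tumor and a mean of at least 1 FPKM, the highest gene of each marker list with genes without a read in any tumor, and chromosomal neighbours. Genes that overlap a member, and Ccl3, Il18, Cxcl10, Mzb1, Sdc1, Ncr1, Klri2, Ccl19, Cd68, Fcer1a, Ms4a2, Zbtb46 and Cdh5, were named after their values were seen. Alternative settings were division by the CD3 genes, median-of-ratios factors, a sum of 1000000 per tumor, thresholds of 0.1 and 1 FPKM, a dominant share of 50%, other filters and pseudocounts, and each tumor left out. Tables were handled with pandas 2.3.3 under Python 3.11, intervals came from SciPy 1.17.1 with NumPy 2.4.6, and plots from matplotlib 3.10.9.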

Additional observations from a re-analysis of the deposited data

How the results depend on the processing

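The count of members above 0.2 FPKM in every tumor was 7 and ranged from 6 to 8 over the alternatives run. It was 6 after division by the CD3 genes, where Il10 was lost, 6 at a threshold of 1 FPKM, and 8 without tumor 2, where Il21 was gained. The share of all genes under these settings is not given, so these counts cannot be read against a background. The 3 members with a dominant tumor became 5 at a share over 50%, with Il21 and Csf2 added. No share of all genes at 50% is given beside it, so that count cannot be read against a background. At 66.7%, the count ranged from 3 to 5 when a tumor was left out. Between 2 tumors, 66.7% is reached at a smaller difference. The value of 5 was that without tumor 3, of 8 members (32.3% of all genes), with Ltb and Csf2 added, which were higher in tumor 2 than in tumor 1. Without tumor 2 the count was 3 of 9 (24.5% of all genes), with Ifng, Il4 and Il10. Without tumor 1 the count was 3 of 7 (23.6% of all genes), but the genes were Tnf, Il10 and Csf2, and the dominance of tumor 1 for Ifng, Il4 and Il10 cannot be seen without that tumor. Ifng, Il4 and Il10 were the dominant members under median-of-ratios factors and division by the CD3 genes, and Il2 joined them after rescaling to a sum of 1000000 or without a filter on low values. Division by the CD3 genes and that rescaling both raise tumor 1 against the other tumors, so they could not end its dominance. The share held by Ltb ranged from 75.8% to 83.8% with a tumor left out. All 19 receptor genes passed under each alternative except the threshold of 1 FPKM, where 16 did. Here too the share of all genes under the alternatives is not given. Mean FPKM of the 10 members moved by over 1 SD with rescaling to 1000000, which changes the unit. Leaving out 1 of 3 tumors cannot move a mean by 1 SD, so these means were compared as ratios. They moved over 1.5 times for 5 members without tumor 1 (Ifng to 1.11, Il4 to 0.0586, Il10 to 0.321, Il21 to 0.142 and Il2 to 0.0418 FPKM), for Csf2 without tumor 2 (to 1.5 FPKM) and for 0 members without tumor 3. The range between tumors moved by over 1 SD for 2 members (Il2 and Il21) with a pseudocount of 1 and for 1 member (Il21) with values at no less than 3 reads. The median range over 9 members went from 2.08 to 1.13 and to 2.39 under these settings, and that over all genes from 0.82 to 0.57 and to 0.85. At a pseudocount of 1 the range fell for all 10 members, including members not counted as moved, such as Il4 (4.70 to 2.12) and Il10 (3.07 to 1.52).

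With 3 tumors in a single group, groups cannot be compared and single tumors have no replicate. Comparisons between genes within tumors were not tested. Levels near the limit of 3 reads (Il2, Il21 in tumor 2, Il4 in tumors 2 and 3) are limited by depth. No paired analysis of groups was possible because the result comes from a single group.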
